A study of Mus musculus with 16 samples.

Results

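The 81 genes described here are the nuclear genes named after the 5 complexes of oxidative phosphorylation, followed in liver RNA of old and young mice that carried a plasmid for the secreted protein MANF or an empty one. They were taken from the 24010 rows of the expression table by symbol: the Nduf genes of complex I without the Ndufaf assembly factors (36 genes), Sdha to Sdhd of complex II (4 genes), the Uqcr genes with Cyc1 of complex III (9 genes), the Cox5 to Cox8 genes of complex IV (15 genes) and the Atp5 genes of ATP synthase (17 genes). No measured value was used in the choice. By background knowledge, Ndufa4 is now counted as a subunit of complex IV, Ndufa4l2 is its paralog, and Atp5s and Atp5sl are not subunits, but all 4 match the symbols and were kept where their names put them. The pattern leaves out Cox4i1, Cox4i2, Cox7a2l and Ndufab1.

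Oxidative phosphorylation is the last stage of respiration: complexes I and II pass electrons from NADH and succinate to ubiquinone, complexes III and IV carry them on through cytochrome c to oxygen, and ATP synthase uses the proton gradient built up on the way to make ATP. Most subunits are coded in the nucleus and imported, while a small core of complexes I, III, IV and V comes from mitochondrial DNA. Liver depends on this chain for the ATP that gluconeogenesis, urea synthesis and bile formation consume, and several complex IV subunits exist as a form found in most tissues and another found mainly in heart and skeletal muscle or testis.

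The 4 groups of C57BL/6 mice were old MANF and old control (both 23 months) and young MANF and young control (both 5 months), with 4 animals and 4 libraries in each. All 16 animals, controls included, had been given a hydrodynamic tail vein injection, a rapid injection of a large volume that delivers DNA mainly to liver cells. The MANF animals received an EEV plasmid coding for human MANF (mesencephalic astrocyte-derived neurotrophic factor), the control animals the empty plasmid, and livers were taken 5 weeks afterwards. The labels do not give the sex, the promoter of the plasmid or the share of cells that took it up, and no uninjected group was used here. Values are RPKM, reads per kilobase of gene length scaled to the size of the library, as the authors computed them.

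Libraries were scaled by the authors to 18.3 to 26.1 M reads (M, megareads) each, and the listed genes held 11.8 to 16.6 M of these. The hepatocyte markers (Alb, Apoa1, Ttr, Serpina1a, Cps1 and Hnf4a) summed to 27092 to 44739 RPKM in every library. Mouse Manf, the endogenous gene, was read at 11.2 to 17.8 RPKM in old MANF livers and 5.95 to 8.26 RPKM in old control livers, and at 7.53 to 13.8 RPKM in young MANF livers and 8.57 to 14.4 RPKM in young control livers. The 2 young groups overlapped, and whether reads of the human sequence were assigned to this row is not stated. Old control replicate 4 and young MANF replicate 3 stood apart from their groups, with root mean square deviations of 0.41 and 0.35 on the log2 scale over all tested genes, against 0.18 to 0.28 in the other 14 libraries.

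The promoters of these genes were compared with all listed mouse promoter windows. RefSeq promoter windows (GRCm38.p6, 250 bases before to 50 after the start) matched 67 of the 81 genes and were searched on both strands for the letters of 3 motifs of factors long tied to respiratory genes: NRF1 (GCGC, any base, then TGCGC), the ETS core bound by GABP (CCGGAAG) and YY1 (AAGATGGC). The last letters of the ETS motif (AAG) are the first of the YY1 motif, so both can be found on partly the same bases. NRF1 letters were in 16 windows (23.9%), against 4.60% of all 32851 mouse windows. ETS letters were in 16 windows (23.9%), against 8.86%, and YY1 letters in 11 windows (16.4%), against 2.75%. At least 1 of them was in 37 of the 67 windows (55.2%), against 14.7% of all windows. YY1 letters were found in complex I (7 of 31 windows) and ATP synthase (4 of 16 windows), and in no window of complexes II, III and IV, which had 20 windows in all. Each member was given 1 window, the one nearest the start of its principal annotated transcript where that was known. The 32851 windows were all those listed, without a choice of 1 per gene. They were not matched to the members for G and C content or for level. A match of letters is a description of the window and not a binding site.

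The sequences below are the 250 bases before the RefSeq start of the 3 genes that passed the age test, of Sdha and Cox6a1 as windows with more than 1 NRF1 match, and of Cox8b as a muscle isoform that liver barely reads. Capitals mark motif letters on either strand, and all run 5′ to 3′ along the gene.
Cox5a, chr9:57520982-57521231, plus strand: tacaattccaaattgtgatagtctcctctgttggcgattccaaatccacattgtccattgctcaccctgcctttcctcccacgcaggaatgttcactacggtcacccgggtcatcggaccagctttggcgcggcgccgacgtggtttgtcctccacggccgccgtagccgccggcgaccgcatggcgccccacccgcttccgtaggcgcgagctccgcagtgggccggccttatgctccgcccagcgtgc
Ndufv2, chr17:66101560-66101809, minus strand: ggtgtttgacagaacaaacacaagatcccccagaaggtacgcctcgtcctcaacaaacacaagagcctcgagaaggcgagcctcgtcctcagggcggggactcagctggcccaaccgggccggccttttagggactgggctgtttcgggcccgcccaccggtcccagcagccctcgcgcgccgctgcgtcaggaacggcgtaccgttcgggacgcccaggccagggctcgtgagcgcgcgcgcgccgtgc
Ndufb3, chr1:58586147-58586396, plus strand: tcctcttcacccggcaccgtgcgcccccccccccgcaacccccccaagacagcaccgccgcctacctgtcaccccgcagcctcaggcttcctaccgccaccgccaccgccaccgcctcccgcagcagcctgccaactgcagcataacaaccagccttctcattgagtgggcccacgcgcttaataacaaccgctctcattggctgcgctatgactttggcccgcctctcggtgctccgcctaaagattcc
Sdha, chr13:74350241-74350490, minus strand: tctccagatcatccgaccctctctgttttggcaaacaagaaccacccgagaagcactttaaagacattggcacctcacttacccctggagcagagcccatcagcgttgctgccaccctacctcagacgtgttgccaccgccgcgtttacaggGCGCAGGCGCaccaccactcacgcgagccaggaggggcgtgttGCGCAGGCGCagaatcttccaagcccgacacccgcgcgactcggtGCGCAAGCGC
Cox6a1, chr5:115348959-115349208, minus strand: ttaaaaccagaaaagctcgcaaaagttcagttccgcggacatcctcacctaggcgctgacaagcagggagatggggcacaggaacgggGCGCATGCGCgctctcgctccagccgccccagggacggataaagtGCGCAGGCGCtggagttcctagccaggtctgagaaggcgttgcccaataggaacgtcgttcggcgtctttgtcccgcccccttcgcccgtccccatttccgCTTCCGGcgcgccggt
Cox8b, chr7:140900447-140900696, minus strand: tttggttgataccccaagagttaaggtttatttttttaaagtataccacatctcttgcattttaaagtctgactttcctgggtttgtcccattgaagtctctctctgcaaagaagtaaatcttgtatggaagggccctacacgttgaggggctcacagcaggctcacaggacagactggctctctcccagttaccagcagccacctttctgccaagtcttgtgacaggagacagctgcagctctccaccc
The Sdha window held NRF1 letters with their first base 98, 55 and 10 bases before the start. The Cox6a1 window held them 162 and 117 bases before the start, with ETS letters on the opposite strand (CTTCCGG) at 16 bases. No capitals stand in the windows of Cox5a, Ndufv2, Ndufb3 or Cox8b, which says only that these letters are not there. The Cox8b window was 47.2% G and C, against 61.6% to 68% in the other 5.

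Nuclear respiratory transcripts were abundant in these livers and spread over a wide range. Of the 81 genes, 76 reached 0.5 RPKM in at least 4 libraries and were tested, and the 5 others (Cox6a2, Cox6b2, Cox7b2, Cox8b and Cox8c) are tissue forms described further on. On the gene length of the table, the highest means over the 16 libraries were those of Atp5a1 (225 RPKM) and Atp5b (208 RPKM), the alpha and beta subunits that form the catalytic head of ATP synthase. The peripheral complex IV subunits Cox6b1 (191 RPKM), Cox8a (189 RPKM) and Cox6a1 (178 RPKM) followed, then Ndufb9 (168 RPKM) and Ndufa6 (155 RPKM), accessory subunits of complex I with LYR motifs, of which Ndufb9 shares 19.5% of its exon length with another gene on the same strand. In complex III the highest were the small subunits Uqcr11 (142 RPKM) and Uqcr10 (114 RPKM), and the lowest was the core protein Uqcrc1 (39.5 RPKM), an order that differs on the transcript lengths given next. In complex II the membrane anchor Sdhd (123 RPKM) was highest and the other anchor, Sdhc (33.3 RPKM), lowest. By complex, the median member was at 37.0 RPKM in complex I, 71.0 RPKM in complex II, 94.2 RPKM in complex III, 90.2 RPKM among the tested members of complex IV, and 47.1 RPKM in ATP synthase.

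These levels depend on the gene length the authors divided by. The lengths recovered from the table equal the union of all annotated exons in GENCODE M21 for 59 of the 79 members found there, so that a gene with one long intron-retaining transcript is given a long length and a low RPKM. The length was over 2 times that of the principal transcript for 29 of the 79 members and over 4 times for 12, with a median ratio of 1.55. The extreme was Ndufb2, a membrane arm subunit of complex I, with 5628 bases in the table against 455 bases in the principal transcript, a ratio of 12.4. Ndufb2 was the lowest tested member at 0.61 RPKM and remained low on the length of the principal transcript, at 7.52 RPKM, with 52 to 98 reads per library. Whether reads of Ndufb2 were lost when reads were assigned to genes cannot be seen from the table. Atp5l, subunit g of ATP synthase, stood at 14.9 RPKM as deposited and at 177 RPKM on its principal length, and Cox6c, a small complex IV subunit, at 36.2 and 257 RPKM. On the principal length the 2 highest were Atp5b (461 RPKM) and Ndufa4 (456 RPKM), and the complex medians were 58.4 RPKM for complex I, 114 RPKM for complex II, 154 RPKM for complex III, 166 RPKM for complex IV and 174 RPKM for ATP synthase. The last leaves out Atp5o and Atp5sl, which had no principal length here. In complex III, Uqcrq (328 RPKM) and Uqcrh (213 RPKM), both small subunits, were then highest, Uqcr10 stood at 154 RPKM, Uqcrc1 at 98.9 RPKM and Cyc1 lowest at 67.8 RPKM. The order of genes by level thus depends on the length used. The ratio of one gene between groups does not, but with 0.5 RPKM added before the logarithm the tested change of a low gene does.

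**Figure D1:**
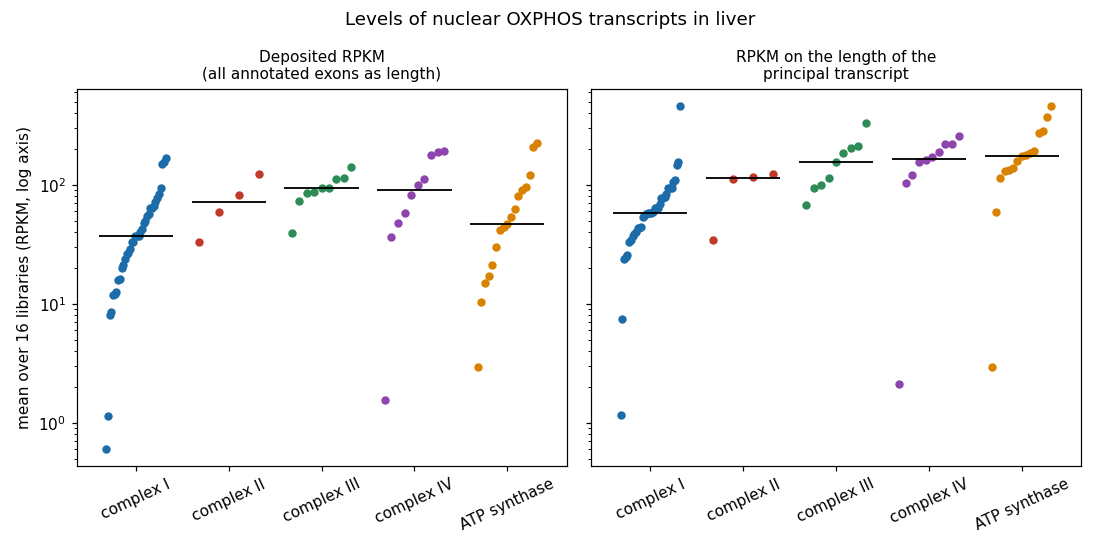
Mean RPKM over 16 libraries (log axis) of the tested members of each complex, as deposited (left) and on the length of the principal transcript (right); each point is a gene and each bar the median of its complex. The ATP synthase median is 174 RPKM on the principal length and 47.1 RPKM as deposited, and the complex I median 58.4 and 37.0 RPKM. Atp5o and Atp5sl have no principal length here and are left out on the right.

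Of the isoforms of complex IV subunits, liver read mainly the forms of most tissues; their levels are given here on the principal length. Cox6a1 and Cox7a2, the forms of most tissues, averaged 219 and 160.3 RPKM. Their heart and muscle counterparts were nearly unread: Cox6a2 had 0 to 2 reads per library, and Cox7a1 10 to 32 reads (2.14 RPKM). Cox8a averaged 187 RPKM, against 0 to 5 reads for the muscle form Cox8b, which had no read in 8 libraries, and 0 to 1 read for the testis form Cox8c. The testis forms Cox7b2 and Cox6b2 had no read in any library and 1 to 14 reads, against 219 RPKM for Cox6b1. Markers of striated muscle (Acta1, Ckm, Myh4, Tnnt3, Mb and Actn3) summed to at most 0.22 RPKM as deposited in any library, with Myh4 at 0 in all, and among adipocyte markers Lep and Ucp1 were at 0. A level of 0 to 3 reads is the limit that these depths can show. Ndufa4 averaged 456 RPKM and its hypoxia-induced paralog Ndufa4l2 1.17 RPKM on the principal length.

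Subunit c of the rotor ring, the part of ATP synthase that turns with proton flow, is coded by 3 genes whose mature proteins are the same. On the principal length Atp5g3 stood highest at 368 RPKM, before Atp5g1 at 174 RPKM and Atp5g2 at 113 RPKM. Many of these short genes have processed pseudogenes in the mouse genome, and how reads that fit several places were assigned is not stated.

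Between animals of 1 group these transcripts varied little. The median standard deviation within groups was 0.11 on the log2 scale for the 76 tested members, against 0.19 for all 10677 tested genes, and exceeded 0.3 only for the low genes Cox7a1 and Ndufa4l2. The members took 1.17% ± 0.030 of all listed reads in old MANF livers, 1.17% ± 0.048 in old control livers, 1.37% ± 0.12 in young MANF livers and 1.27% ± 0.044 in young control livers (SD, n = 4 each). By complex, the shares of complexes I, III and IV were lower in each of the 8 old libraries than in any of the 8 young ones, whereas those of complex II and ATP synthase overlapped. Complex I, for example, took 0.291% to 0.306% in old MANF livers and 0.292% to 0.312% in old control livers, and 0.318% to 0.404% in young MANF livers and 0.316% to 0.344% in young control livers. Complex II took 0.101% to 0.108%, 0.0981% to 0.111%, 0.111% to 0.120% and 0.0990% to 0.114% in those groups. The gap between ages could be small: complex III reached 0.166% in old control livers and began at 0.167% in young control livers. The share of other gene sets that separate by age in this way was not computed. A share of reads also moves when a few genes take more: Alb alone held 6.84% to 11.8% of them.

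Young MANF replicate 3, 1 of the 2 libraries that stood apart, was the highest of its group for 62 of the 76 members, and young MANF replicate 4 the lowest for 62. The median member in replicate 3 was 0.32 above its mean over all libraries on the log2 scale, while in the other 15 libraries the median lay between -0.11 and 0.12. In that library complexes I, III and IV and ATP synthase were raised together, and complex II by 0.07. Young control replicate 2 was the highest of its group for 54 members, and old MANF replicate 3 the lowest for 44. The main results below that involve young MANF livers are also given without replicate 3.

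**Figure D2:**
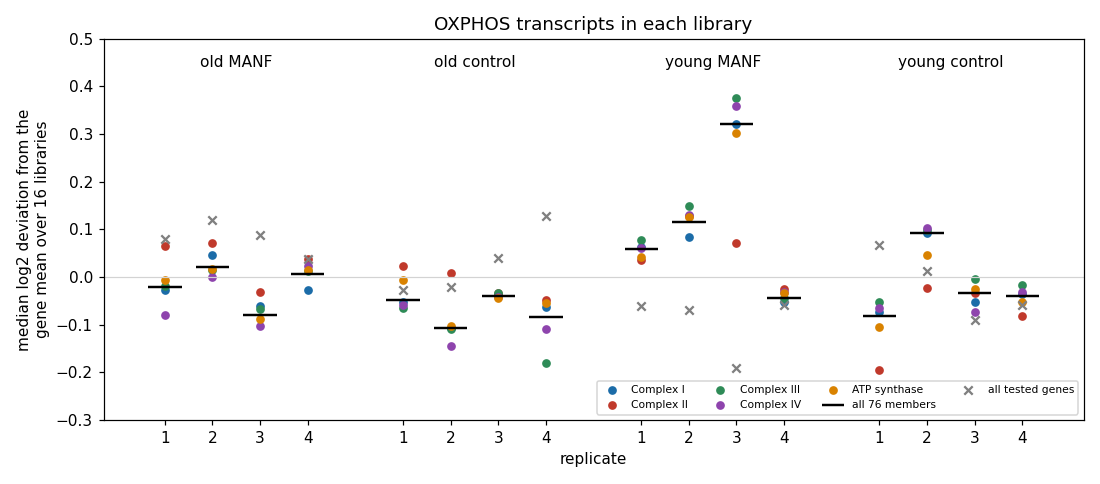
Median deviation of each complex (coloured points), of all 76 tested members (bars) and of all tested genes (crosses) from the mean over the 16 libraries, on the log2 scale, by library and group. Young MANF replicate 3 stands at 0.32 for the members while the median of all tested genes in it is -0.19.

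The age comparison asks whether respiratory transcripts differ between old and young livers. Averaged over both plasmids, 3 of the 76 members fell in old livers and none rose: Cox5a by 0.21, Ndufv2 by 0.19 and Ndufb3 by 0.24 on the log2 scale. The difference was called with limma at an adjusted p below 0.05 over all 10677 genes, by which 15.6% of all genes were called, 1.53% lower and 14.1% higher. On deposited RPKM the members moved slightly down where most genes moved up. Their median change was -0.09 and 66 of 76 were below 0, whereas the median of all tested genes was 0.11 and 8004 of 10677 were above 0. Without young MANF replicate 3 the medians were -0.06 for the members and 0.09 for all genes. Without adjustment 17 members had p below 0.05, all lower in old livers (22.4% of members), against 33.5% of all genes in either direction. The share of all genes with such a p and lower in old livers was not computed, so the 2 shares are not alike.

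Cox5a codes for a complex IV subunit on the matrix side of the enzyme, and lies at chr9:57521274-57532426 (GRCm38, GENCODE M21, plus strand). Its 4 replicates were at 45.7, 44.9, 41.4 and 43.2 RPKM in old MANF livers and at 45.5, 44.3, 44.4 and 43.9 RPKM in old control livers. They were at 47.9, 49.2, 57.1 and 47.9 RPKM in young MANF livers and at 52.2, 50.7, 52.2 and 52.4 RPKM in young control livers. All 8 old libraries lay below all 8 young libraries. Cox5a was picked by this age test, and the share of all genes that separate so was not computed. The log2 change was -0.21 ± 0.050 (SE; limma, adjusted p = 0.014), and it was -0.18 without young MANF replicate 3 (adjusted p = 0.011).

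Ndufv2, an iron-sulphur subunit of the NADH-oxidising tip of complex I, lies at chr17:66078638-66101559 (minus strand). It was at 35.3, 32.5, 33.6 and 35.1 RPKM in old MANF livers and at 34.9, 36.4, 35.4 and 36.4 RPKM in old control livers. Young MANF livers had 37.7, 39.7, 42.6 and 37.9 RPKM and young control livers 38.4, 39.5, 40.8 and 42.4 RPKM. The old and young libraries did not overlap here either, with the same limit. The log2 change was -0.19 ± 0.048 (limma, adjusted p = 0.019), and -0.17 without young MANF replicate 3 (adjusted p = 0.018).

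Ndufb3, a small accessory subunit in the membrane arm of complex I, lies at chr1:58586384-58595964 (plus strand). Old MANF livers had 32.3, 34.2, 36.6 and 27.7 RPKM and old control livers 35.2, 37.8, 35.6 and 32.2 RPKM. Young MANF livers had 44.6, 37.7, 44.7 and 35.3 RPKM and young control livers 41.7, 43.6, 38.3 and 36.8 RPKM. The ages overlapped between 35.3 and 37.8 RPKM. The log2 change was -0.24 ± 0.073 (limma, adjusted p = 0.035), but the call was lost without young MANF replicate 3 (-0.22, adjusted p = 0.051) and in 8 of the other 15 fits that leave out 1 library. Without both libraries that stood apart, the limma values were -0.18 for Cox5a (adjusted p = 0.013), -0.17 for Ndufv2 (adjusted p = 0.019) and -0.20 for Ndufb3 (adjusted p = 0.083).

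**Figure D3:**
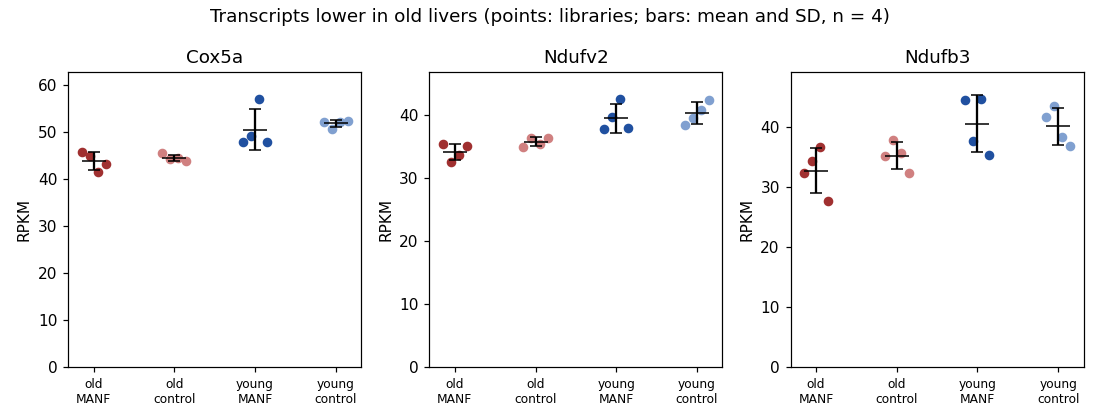
RPKM of Cox5a, Ndufv2 and Ndufb3 in each library (points) with the group mean and SD (n = 4), for old MANF, old control, young MANF and young control livers. Cox5a in old livers lies between 41.4 and 45.7 RPKM and in young livers between 47.9 and 57.1 RPKM.

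The other members below p of 0.05 without adjustment, none of which passed the adjusted test, came from 4 of the 5 complexes. They were 7 more in complex I, 4 in complex III, 2 in complex IV and 1 in ATP synthase. Ndufa12, an accessory subunit at the joint of both arms, had -0.20 (adjusted p = 0.060), Ndufs4, an accessory subunit whose loss causes Leigh syndrome in humans, -0.18 (adjusted p = 0.059), and Ndufs3, a core subunit of the ubiquinone-binding module, -0.15 (adjusted p = 0.080). Uqcr10 had -0.20 and cytochrome c1 (Cyc1) -0.17 in complex III, and Atp5g3 -0.16 (adjusted p = 0.082) in ATP synthase. On deposited RPKM, all 9 members of complex III, 31 of 36 of complex I, 9 of 10 tested of complex IV and 15 of 17 of ATP synthase had estimates below 0; of all 76 members 66 did, against 73 with quantile normalization or a length trend removed and 76 with median scaling or voom.

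Complex II, the only complex with no mitochondrially coded subunit, had 2 of 4 estimates below 0 on deposited RPKM and with quantile normalization, but all 4 below 0 with median scaling, with the length trend removed and with voom. Sdha, the flavoprotein that oxidises succinate, was at 85.4 ± 2.15 RPKM in old MANF livers, 85.4 ± 4.78 in old control livers, 82.0 ± 3.31 in young MANF livers and 78.2 ± 3.45 in young control livers (SD, n = 4 each). Its log2 age difference was 0.09 with a 95% interval of -0.01 to 0.20 on deposited RPKM, and it was -0.06 with median scaling. Sdhb, the iron-sulphur subunit, had -0.02, Sdhc 0.07 and Sdhd -0.10, and none of the 4 passed the test on deposited RPKM, while Sdhd was called lower with median scaling (-0.25, limma adjusted p = 0.037) and with voom (-0.24, adjusted p = 0.029). The difference between complex II and the others was not tested.

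**Figure D4:**
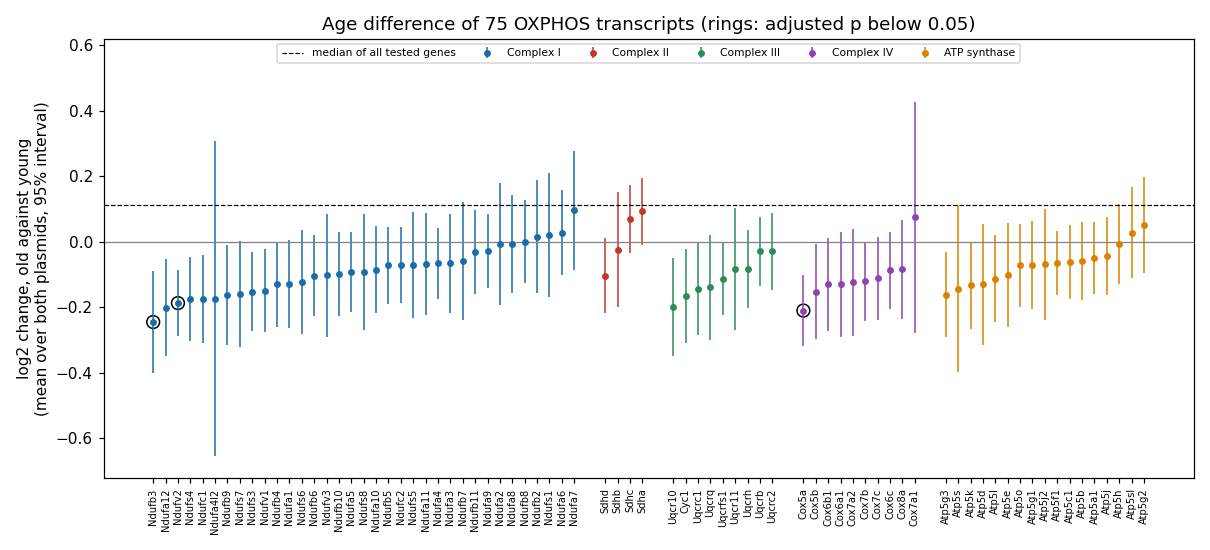
Log2 age difference (old against young, mean over both plasmids) of 75 of the 76 tested members with 95% intervals, ordered within each complex; rings mark adjusted p below 0.05 and the dashed line is the median of all tested genes, 0.11. Most points lie below 0, and the ringed ones are Ndufb3 (-0.24), Ndufv2 (-0.19) and Cox5a (-0.21).

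The count of called members depended on how the libraries were put on 1 scale. On the RPKM as deposited, 90.2% of all genes called for age were higher in old livers. With quantile normalization this share was 40.6%, with median scaling 41.2%, with a length trend removed 55.7%, and with voom on recovered reads and trimmed-mean scaling 55.6%. Those scalings moved the median of all genes to between -0.04 and 0.00, and with it the members: 13 were called with quantile normalization, 12 with the length trend removed, 26 with median scaling and 31 with voom, all of them lower in old livers. The shares of all genes called lower under the same scalings were 6.66%, 4.84%, 7.1% and 5.53%. Relative to the median of all genes the members' median was -0.20 as deposited and -0.12, -0.14, -0.20 and -0.23 under these scalings. Median scaling cannot change this distance, because it moves all genes of a library by 1 amount. Cox5a, Ndufv2 and Ndufb3 were called in all 5 fits, and Ndufa12, Ndufc1, Ndufs3, Ndufs4 and Atp5g3 in all 4 rescaled fits.

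**Figure D5:**
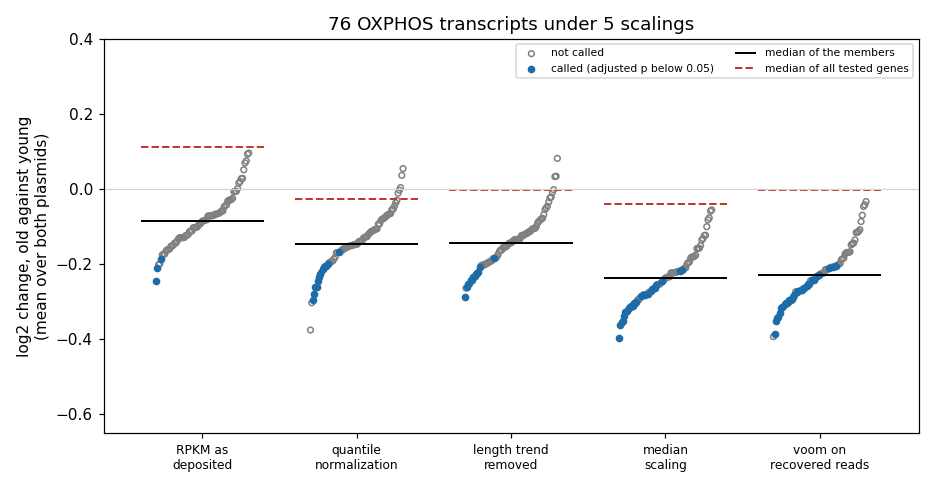
Log2 age difference of the 76 tested members (points; filled where adjusted p is below 0.05) under 5 scalings, with the median of the members (black) and of all tested genes (dashed red). The members' median runs from -0.09 on deposited RPKM to -0.24 with median scaling, while the count called goes between 3 and 31.

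Several markers of cells other than hepatocytes were higher in old livers in the averaged age test, by which 14.1% of all genes were called higher. These calls are on deposited RPKM, on which 90.2% of all genes called for age were higher, and are not given under the other scalings. Of the Kupffer cell markers, 4 of 6 rose with age (median 1.33 on the log2 scale), while 0 of 6 were called within control or within MANF mice. Their sum was 97.4 to 195 RPKM in old MANF livers and 85.7 to 437 in old control livers. It was 25.1 to 90.7 in young MANF livers and 41.6 to 115 in young control livers. The 437 RPKM belonged to old control replicate 4, a library that stood apart, with C1qa at 142 RPKM. Of the sinusoidal endothelial markers 5 of 6 rose, of the stellate cell markers 2 of 5, of the tested T and NK cell markers 3 of 3, and of the tested B cell markers 1 of 2. Within control mice, where 1.25% of all genes were called, 3 of 6 endothelial and 0 of 5 stellate markers were. Within MANF mice, where 6.57% of all genes were called, 0 of 6 endothelial and 4 of 5 stellate markers were. The stellate median was 0.17 in control mice and 0.73 in MANF mice, and no interaction was called. None of the 4 red cell precursor markers, of the 2 tested cholangiocyte markers and of the adipocyte markers, of which 1 was tested, was called, and of the hepatocyte markers Alb rose and Serpina1a fell. The part of these cells in the age result was not tested, and in whole liver RNA fewer cells of a type and less RNA per cell cannot be told apart.

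Taken by plasmid, neither age difference contained a called member. In MANF mice, where 6.57% of all genes were called, 12 members had unadjusted p below 0.05, all lower in old livers, against 33.4% of all genes in either direction, with a median member change of -0.12 against 0.18 for all genes. The smallest p-values were those of Ndufv2 (-0.21, adjusted p = 0.067), Ndufb3 (-0.31, adjusted p = 0.072) and Cox5a (-0.20, adjusted p = 0.079), by limma. With voom 8 members were called lower, against 2.04% of all genes, and without young MANF replicate 3 the median member change was -0.07. In control mice, where 1.25% of all genes were called, 3 members had unadjusted p below 0.05, against 14.9% of all genes in either direction. All were lower in old livers by limma: Cox5a (-0.22, adjusted p = 0.15), Ndufs4 (-0.22, adjusted p = 0.24) and Ndufv2 (-0.17, adjusted p = 0.25). The median member change there was -0.04 against 0.05 for all genes. The same young and old groups enter the averaged comparison, so these values are its components and not further evidence.

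The plasmid comparison asks whether respiratory transcripts differed between mice given the MANF plasmid and mice given the empty one. In young mice no member was called, and 0.0187% of all genes were. The members leaned upwards: 69 of 76 estimates were above 0, and the median was 0.12 against -0.10 for all genes. Of the members, 15 had unadjusted p below 0.05 (19.7%), all higher with MANF, against 14.9% of all genes in either direction. Without replicate 3 of the young MANF group the median was 0.07. The smallest p-value belonged to Atp5g1, 1 of the subunit c genes, with 21.9, 23.3, 29.1 and 21.3 RPKM in young MANF livers against 19.1, 20.6, 18.1 and 20.2 RPKM in young control livers. All 4 young MANF libraries were above all 4 young control libraries, with a log2 difference of 0.28 ± 0.090 (limma, adjusted p = 0.23), which was 0.18 without replicate 3. Atp5g1 was picked by its p-value, and the share of all genes without overlap was not computed. Uqcrc1, a core protein of complex III, was at 41.9, 43.6, 57.2 and 40.05 RPKM in young MANF livers against 35.7, 38.1, 39.1 and 38.0 RPKM in young control livers (0.26, adjusted p = 0.26). Sdhb was at 61.3, 67.3, 81.5 and 57.6 RPKM in young MANF livers against 44.6, 57.3, 57.2 and 54.2 RPKM in young control livers (0.32, adjusted p = 0.26). Without replicate 3 these were 0.15 for Uqcrc1 and 0.22 for Sdhb.

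In old mice 0 of 76 members were called by limma and by voom, and 0 had an unadjusted p below 0.05, while 0.103% of all genes were called and 9.7% had an unadjusted p below 0.05. The median member difference was 0.04, against 0.03 for all genes, was 0.03 without old control replicate 4, and turned to -0.03 with the length trend removed and to -0.02 with voom. The smallest p-values were those of Atp5g1 (0.14), Cox7a2 (0.16) and Ndufs5 (0.15), a small subunit of complex I that faces the intermembrane space, with limma adjusted p between 0.73 and 0.75. Atp5g1 was at 20.9, 21.6, 22.4 and 20.9 RPKM in old MANF livers, against 19.0, 19.0, 20.2 and 19.6 RPKM in old control livers, without overlap. It was picked by its p-value here too, and the share of all genes without overlap was not computed.

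Averaged over both ages, no member was called for the plasmid (background 1.29%). Without adjustment 12 had p below 0.05, all higher with MANF, against 14.1% of all genes in either direction. The median member difference was 0.08, and 0.05 without young MANF replicate 3, against -0.03 and -0.01 for all genes. The first was Atp5g1 (0.21 ± 0.063, limma adjusted p = 0.14), with Uqcr11 (0.24, adjusted p = 0.24) and Ndufs7, the subunit that holds the last iron-sulphur centre before ubiquinone (0.20, adjusted p = 0.24), next. This average is made of the young and old comparisons above, so it is not further evidence for Atp5g1. The interaction, the MANF difference in old mice minus that in young mice, was called for 0 members and 0% of all genes. No member had an unadjusted p below 0.05 for it, by limma, against 8.37% of all genes. Its median over the members was -0.08, against 0.12 for all genes, and -0.02 without young MANF replicate 3. Sdhb was nearest at -0.34 with a 95% interval of -0.69 to 0.02, and Atp5sl and Uqcrc1 followed at -0.22 and -0.20.

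The intervals of the fit on deposited RPKM give the size of difference that these 16 animals could miss on that scale. They do not cover the choice of scaling. For age in MANF mice, the median member change was -0.12 on deposited RPKM and -0.35 with median scaling. In each of the 4 comparisons within an age or plasmid, the 95% interval of 74 of the 76 members lay within 1.5-fold in both directions, and the median distance from an estimate to its bound was 0.19 on the log2 scale. The exceptions were among the low genes Ndufa4l2, Cox7a1 and Atp5s. For the averaged age difference 75 members were within 1.5-fold, with a median distance of 0.13, and for the interaction 72 were, with 0.27. Ndufa4l2, for example, had a MANF difference in old mice of 0.34 with an interval of -0.34 to 1.02.

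Other genes that work with the complexes were read in the same test for age averaged over both plasmids, in which 14.1% of all genes were called higher and 1.53% lower. These values are on deposited RPKM, on which 90.2% of all genes called for age were higher in old livers. Under the other scalings that share was 40.6% to 55.7%, and values of these lists under them are not given here. The 14 complex I assembly factors had 1 call, Acad9 (0.27 higher in old livers, limma adjusted p = 0.014), and the 23 assembly factors of complexes II to V had none, with 4 at unadjusted p below 0.05. Of the 12 citric acid cycle enzymes, Suclg2, the GTP-forming succinyl-CoA ligase subunit, rose by 0.30 (adjusted p = 0.0031), and Idh3a, the catalytic subunit of NAD-dependent isocitrate dehydrogenase, fell by 0.27 (adjusted p = 0.037). Of the 12 tested regulators of mitochondrial biogenesis, Yy1 rose by 0.31 (adjusted p = 0.031) and the coactivator Ppargc1b by 0.35 (adjusted p = 0.047). Of 7 carriers and channels, the ADP/ATP carrier Slc25a4 rose by 0.54 (adjusted p = 0.047), with old control replicate 4 at 4.68 RPKM and the other 15 libraries at 1.06 to 2.85 RPKM. The mitochondrial ribosome, 76 tested genes, resembled the complexes in its counts, with 3 lower (Mrpl2, Mrpl20 and Mrps27), none higher and a median of -0.08. The cytosolic ribosome, also of short and highly read transcripts, had 0 of 80 called by limma, 2 at unadjusted p below 0.05 and a median of 0.06. The median of all tested genes was 0.11, and the part of length or level in these differences was not tested. Of the 7 tested respiratory genes outside the symbol pattern, among them Cox4i1, 0 were called and 1 had an unadjusted p below 0.05. No mitochondrially coded gene has a row in the table used here.

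Among these lists only Idh3a was called for MANF averaged over both ages, at -0.41 (limma, adjusted p = 0.025). Of all genes, 1.29% were called in that comparison. Its levels were 4.61, 5.08, 4.88 and 4.52 RPKM in old MANF livers and 6.07, 8.04, 7.02 and 5.63 RPKM in old control livers. They were 6.26, 6.93, 4.76 and 6.19 RPKM in young MANF livers and 8.08, 7.40, 8.66 and 7.55 RPKM in young control livers. All MANF libraries lay below all control libraries of the same age. Idh3a was picked by its call, and the share of all genes without overlap was not computed.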

How the data were processed

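Liver mRNA of 16 mice was sequenced, 4 per group. The deposited table holds RPKM values computed by the authors; the mm10 assembly, HTSeq and STAR 2.4.2a are listed in the submitters' processing notes, with no order of use. Whole reads and gene lengths were recovered from the steps between RPKM values (100% whole within 0.001 reads, at most 0.2 for genes with many reads). The gene names were matched to GENCODE M21 (GRCm38). Of 24010 rows, 6664 were 0 in all libraries.

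Genes with at least 0.5 RPKM in 4 libraries (10677) were analysed as log2(RPKM + 0.5), so changes of low genes are understated, with limma 3.58.1 (intensity trend, R 4.3.3). One fit with a mean per group gave 7 contrasts, two-sided, adjusted by Benjamini-Hochberg over all tested genes and called at adjusted p below 0.05. The scripts were tested on simulated data. The values of 1 member are not reported here, though counts and medians include it, except among libraries far from their group. The p-values measure the spread between animals, 1 library each. The members and gene lists were chosen with earlier results of these data known.

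Named genes are the called members, the 3 smallest p-values per contrast, the 2 highest and the lowest gene per complex, isoform groups, the Sdh genes, members with 1 library far from its group, and called genes of the other lists. A principal transcript is the shortest APPRIS principal transcript with the longest coding sequence. Alternatives were pseudocounts of 0.1 and 1 RPKM, a filter of 1 RPKM or none, median, quantile and length-trend scaling, voom on recovered reads, a replicate block, and fits that leave out libraries. Interpretation of sparse genes is limited by counting error at a few reads per library.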

Additional observations from a re-analysis of the deposited data

Results flagged for a closer look

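In 16 of the 308 sets of 4 libraries examined (members and their summed measures, by group), 1 library lay far from its other 3, beyond the 95% critical value of Dixon's test on the gap over the range. Chance alone flags about 1 set in 20. Young control replicate 2 accounted for 5 of the 16, and old MANF replicate 3 and young MANF replicate 3 for 4 each.

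Young control replicate 2 was high for Cox6b1 (209 RPKM, the others 179.9 to 183), for Cox5b (62.2, the others 56.0 to 56.4), for Ndufa7 (34.1, the others 26.7 to 27.8) and for Atp5l (16.9, the others 14.4 to 14.7). It was low for Cox5a (50.7, the others 52.2 to 52.4).

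Old MANF replicate 3 was low for 4 ATP synthase genes, namely Atp5h (84.1 RPKM, the others 90.4 to 90.8), Atp5o (44.5, the others 47.4 to 47.9), Atp5j (37.2, the others 41.5 to 42.2) and Atp5l (13.5, the others 14.8 to 14.9). This library was the lowest of its group for 44 of the 76 tested members.

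Young MANF replicate 3 was high for Ndufa8 (81.3 RPKM, the others 63.4 to 64.0), Cox5a (57.1, the others 47.9 to 49.2) and Ndufa11 (16.5, the others 11.97 to 12.3), and low for Atp5s (2.19, the others 3.19 to 3.30). In the old control group, replicate 1 was low for Ndufa1 (83.0 RPKM, the others 87.5 to 88.0), replicate 2 was low for Ndufs3 (29.8, the others 31.7 to 31.8) and replicate 4 was high for Ndufa4l2 (1.79, the others 0.489 to 0.710).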

How the results depend on the processing

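Of 364 comparisons of a count of called members or a median change with an alternative, 346 kept the direction and stayed within 1.5 times the count or within 1 SD of the median, and 18 moved. Of the members named for a call or for 1 of the 3 smallest p-values of a comparison, none changed direction under the alternatives run. Of members not called, all 10 with an age estimate above 0 on deposited RPKM were below 0 with median scaling and with voom, among them Sdha (0.09, against -0.06 and -0.05), Sdhc (0.07, against -0.08 and -0.07) and Ndufa7 (0.10, against -0.06 and -0.04). For age averaged over both plasmids, the 3 called members became 26 with median scaling, 13 with quantile normalization, 12 with the length trend removed and 31 with voom on recovered reads, with medians of -0.24 under median scaling and -0.23 under voom. Leaving out 1 library gave 2 to 7 calls (7 without young MANF replicate 4) and medians of -0.12 to -0.06. For age in MANF mice, the 0 calls became 1 without a filter, 3 with median scaling, 2 with the length trend removed and 8 with voom, and 0 to 3 when 1 library was left out (3 without young MANF replicate 4). The median there was -0.35 with median scaling and with voom. The median MANF difference in young mice was 0.24 with median scaling and 0.23 with voom, and that of the interaction was -0.23 and -0.24. Median scaling moves every gene of a library by 1 amount, which gives its shifts by construction, and the cause of the others was not tested. Ndufb3 lost its age call in 9 of the 16 fits without 1 library.

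Same-numbered libraries did not deviate together: over 24 pairs of the same number the correlation ran from -0.32 to 0.21, with 5 above 0.1, and 2 of 16 libraries correlated best with their own number. With the replicate number as a block, 3 members were called for age averaged over both plasmids and 0 in each other comparison, by limma. Depth limits Cox6a2, Cox8b, Cox8c and Cox7b2, which had 0 to 5 reads per library, so that no difference between groups was detectable in them.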
